A study of Mus musculus with 5 samples.

Results

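The genes described here are 8 ligands and receptors of the PDGF, VEGF and FGF families, taken by symbol from the deposited table: the receptor genes Pdgfra, Pdgfrb, Flt1 and Fgfr1 and the ligand genes Pdgfa, Vegfa, Vegfc and Fgf2. All 8 were present among the 12621 genes of the table, and all 8 passed the filter on low values that left 12484 genes for testing. Poly(A) RNA was sequenced from mouse mesenchymal stem cells, the adherent stromal progenitors of bone, fat and cartilage. Knockout (KO) cells lacked TSG-6, a secreted hyaluronan-binding protein encoded by Tnfaip6, and wild-type (WT) cells were their counterpart. Every sample carries the strain label Balb/c (C.129S6), and the labels used here name neither the deleted part of the gene nor the source tissue, the age or the sex of the animals. The table holds 3 KO libraries, with the suffixes C1, C2 and SE, and 2 WT libraries, C1 and SE. The labels explain neither the suffixes nor whether each library had its own animal or culture. The p-values thus reflect library-to-library spread, part of which may be technical.

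PDGF ligands are dimers that drive growth and migration of mesenchymal cells through the receptor tyrosine kinases PDGFR-alpha and PDGFR-beta, and PDGF-A acts through the alpha receptor. VEGF-A is the main growth factor of blood vessels and VEGF-C that of lymphatic vessels, and FLT1 is a high-affinity receptor of VEGF-A that also exists as a soluble decoy. FGF2 signals through FGFR1 with heparan sulphate as a co-factor and is widely used to keep cultured stromal cells dividing. Stromal cells are known as producers of VEGF-A and as responders to PDGF and FGF.

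Levels are given as normalised counts, close to CPM in scale, with 1 read worth between 0.0378 and 0.0717. Recovered library totals lay between 13605555 and 26658725 reads. The targeted gene was lower in the KO without passing the test with group as the only term. Tnfaip6 had 1.65, 2.38 and 1.36 in KO C1, C2 and SE, against 6.04 and 3.21 in WT C1 and SE (limma, adjusted p = 0.0578). It passed in 4 of 17 alternative settings, among them genotype and suffix in a single fit (log2 fold change -1.22, limma, adjusted p = 0.00943). Whether the remaining transcripts held the deleted part could not be read from counts over the whole gene. The SE libraries stood apart from the C libraries: with genotype and suffix in a single fit, 32.8% of all tested genes differed between SE and C at an adjusted p under 0.05. Each member is therefore given in every library, with the difference within the suffixes beside the pooled one. Of the 12 stromal markers looked for, 10 were in the table and summed to between 17433 and 32872 in KO libraries and between 3015 and 5480.4 in WT libraries (most of the KO sums from Cxcl12, Col1a1 and Col1a2). Of these 10, 3 were higher, 3 lower and 4 did not pass, 60.0% called beside 34.3% of all tested genes. Cxcl12 rose to a mean of 11680 ± 3099 in KO, against 117 ± 3.70 in WT. Col1a1 and Col1a2 rose to 4574 ± 6722 and 4332 ± 4089 in KO, against 30.9 ± 35.8 and 90.5 ± 71.2 in WT. Eng, Itgb1, Vcam1 and Col3a1 did not pass. Of the lower markers, Nt5e, which encodes the stem cell marker CD73, fell to 0.752, 0.946 and 0.358 in KO libraries, against 77.4 and 121.4 in WT libraries (limma, adjusted p = 0.000112). Nt5e passed the filter on low values only through its WT libraries. Cd44 and Ly6a, the Sca-1 gene, fell to means of 35.9 ± 6.36 and 36.25 ± 16.6 in KO, against 354.7 ± 42.4 and 347.8 ± 90.4 in WT. Their part in the members' values was not tested. In bulk RNA, fewer cells that express a gene and less RNA per cell cannot be told apart.

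Of the 8 members, 3 were lower and 0 higher in the KO at the threshold (limma, Benjamini-Hochberg adjusted p under 0.05 over all tested genes), where 17.1% of all tested genes were lower, 17.2% higher and 34.3% called in either direction. At an unadjusted p under 0.05, 1 was higher, Pdgfrb; at the adjusted threshold edgeR called 0 higher and DESeq2 called 1. With the suffix as a block, 6 of the 8 were called, beside 60.6% of all tested genes. The groups did not overlap for 5 of the 8, beside 58.8% of all tested genes. With only 8 genes, these shares say nothing particular about the group. Their median log2 fold change was -1.11, and that of all tested genes was -0.09. Log2 fold changes are KO over WT on the scale of the value plus 0.5, so the change of a weakly read gene comes out too small; folds are ratios of group means.

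**Figure D1:**
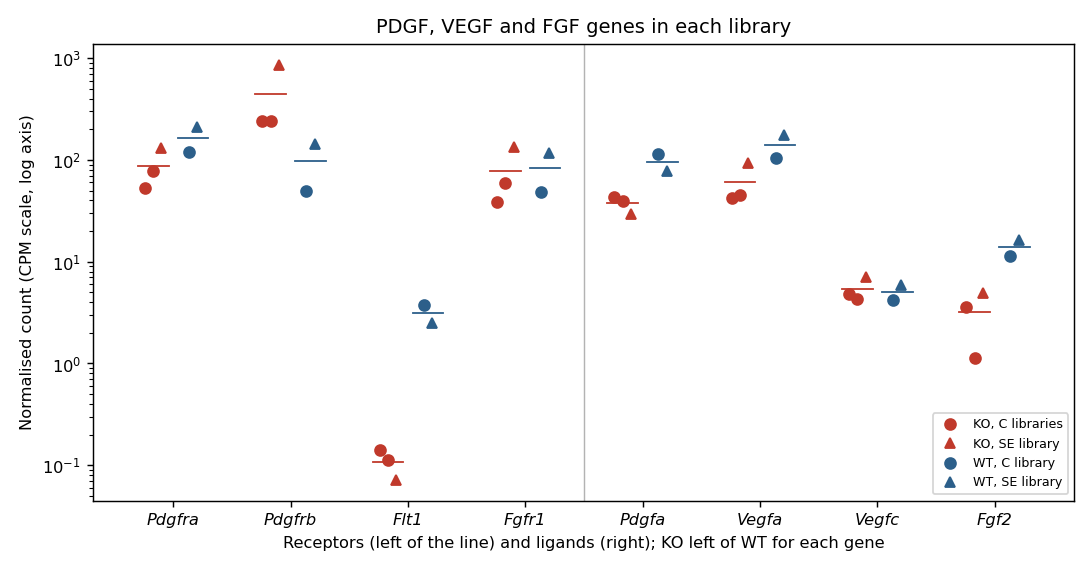
Normalised counts (CPM scale, log axis) of the 4 receptor and 4 ligand genes in each library, with KO in red and WT in blue, circles for C and triangles for SE libraries, and a line at each group mean. Flt1 lies near 0.1 in every KO library against 3.77 and 2.49 in WT, Pdgfrb is above both WT libraries in every KO library, and the triangles lie above the circles of their group for Pdgfra, Pdgfrb, Fgfr1, Vegfa, Vegfc and Fgf2.

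Flt1, the VEGF receptor, showed the largest difference among the members. Flt1 (ENSMUSG00000029648, chromosome 5, 147561604 to 147726011, minus strand, GRCm38) had normalised counts of 0.141, 0.113 and 0.0717 in KO C1, C2 and SE, against 3.77 and 2.49 in WT C1 and SE. These rest on 3, 3 and 1 reads in the KO libraries and on 93 and 48 reads in the WT libraries. The gene was barely read in the KO and low in the WT, with no overlap. The read rate was 28.2 times lower in the KO, with an exact 95% interval from 13.4 to 71.5 that covers counting error only. The log2 fold change was -2.55 (SE 0.27, limma, adjusted p = 0.000952) and held within the suffixes, at -2.77 among C and -2.39 among SE libraries. In edgeR, without the pseudocount of 0.5, it was -4.73. Without WT C1 or without WT SE the gene no longer passed the filter on low values. Gene-level counts do not separate the membrane receptor from its soluble form.

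The stretch before the annotated start of Flt1 and that of its ligand Vegfa are shown because these are the most strongly changed receptor and its ligand among the members. Both are 250 bases long, lie outside the exons of their gene, read 5′ to 3′ on the minus strand and come from RefSeq (GRCm38.p6), at chr5:147726012-147726261 for Flt1 and chr17:46032378-46032627 for Vegfa. Capitals mark GC boxes, GGGCGG on either strand.
Flt1: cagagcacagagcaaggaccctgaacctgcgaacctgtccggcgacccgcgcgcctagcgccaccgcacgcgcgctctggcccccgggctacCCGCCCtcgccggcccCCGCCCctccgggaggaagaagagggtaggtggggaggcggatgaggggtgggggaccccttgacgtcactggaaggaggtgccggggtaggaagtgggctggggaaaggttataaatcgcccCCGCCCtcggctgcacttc
Vegfa: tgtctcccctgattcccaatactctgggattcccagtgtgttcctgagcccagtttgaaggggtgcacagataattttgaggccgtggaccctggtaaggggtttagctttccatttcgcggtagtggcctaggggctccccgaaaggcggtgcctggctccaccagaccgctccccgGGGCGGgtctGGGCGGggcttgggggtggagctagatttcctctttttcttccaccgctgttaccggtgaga
The Flt1 window held 3 GC boxes, 1 TATA box (TATAAA) and 1 ETS core (GGAAGT), with 70.4% G and C. The Vegfa window held 2 GC boxes and 1 CCAAT box (CCAAT), with 59.2% G and C, and neither held the hypoxia response core ACGTG. The source lists 2 windows for Vegfa, and these counts hold for the printed window only. Searched on both strands of 32536 distinct windows of this length, GC boxes were found in 33.0%, TATAAA in 12.3%, CCAAT in 33.8%, GGAAGT in 19.8% and ACGTG in 16.7%, and the median share of G and C was 52.4%. No matches of different motifs overlapped in the printed windows. Promoter windows were matched by symbol for 6 of the 8 members.

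The PDGF receptor genes had fold changes of opposite sign, and neither passed the test with group as the only term. Pdgfra (ENSMUSG00000029231, chromosome 5, 75152292 to 75198215, plus strand), the receptor of PDGF-A and PDGF-C, had 52.7, 77.9 and 130.2 in KO C1, C2 and SE, against 119.9 and 210.1 in WT C1 and SE. KO SE lay just above WT C1, so the groups overlapped. The means were 86.9 ± 39.5 in KO and 165 ± 63.8 in WT (SD, n = 3 and n = 2), with a log2 fold change of -0.96 (SE 0.43, limma, adjusted p = 0.132). The gene was lower in the KO within the suffixes, by -0.90 on the log2 scale among C and -0.69 among SE libraries. It was called with the suffix as a block (log2 fold change -0.81, adjusted p = 0.00877) and also without KO SE (adjusted p = 0.0168).

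Pdgfrb (ENSMUSG00000024620, chromosome 18, 61045150 to 61085061, plus strand), the receptor that marks pericytes and many stromal cells, had 239.8, 239.5 and 860.1 in KO C1, C2 and SE, against 49.0 and 144.5 in WT C1 and SE. Every KO library was above both WT libraries, and SE was the highest library in each group. The means were 446 ± 358 in KO and 96.8 ± 67.5 in WT, 4.61 times higher in the KO, with a log2 fold change of 2.12 (SE 0.69, limma, adjusted p = 0.055). The difference was 2.28 among C and 2.57 among SE libraries on the log2 scale. Pdgfrb was called with the suffix as a block (2.40, SE 0.12, adjusted p = 2.26e-05), without WT SE (2.89, adjusted p = 0.0449) and without KO SE (1.5, adjusted p = 0.0286).

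The receptor transcripts were also set against each other within each library. Per kilobase of merged exons, the ratio of Pdgfrb to Pdgfra was 8.32, 5.63 and 12.1 in KO C1, C2 and SE, against 0.749 and 1.26 in WT C1 and SE. The ratio does not depend on library scaling, and the groups did not overlap, though so few libraries cannot pass a permutation test at 0.05. The ratio was 8.52 times higher in the KO as a ratio of geometric means (two-sided exact permutation test, p = 0.2, the smallest that 3 against 2 libraries can give). Markers of mural cells, the vessel-coating cells in which Pdgfrb is typical, were measured beside it: of 7 tested, 4 were higher and 1 lower, 71.4% called beside 34.3% of all tested genes, and the 7 summed to between 3000.1 and 6486 in KO and between 94.5 and 122.6 in WT. Of the 4 higher, Des, Tagln and Rgs5 passed the filter on low values only through their KO libraries. Most of the KO sum was Acta2, smooth muscle actin, while Cspg4, the pericyte proteoglycan NG2, fell to 0.893, 0.454 and 1.79 in KO libraries, against 28.0 and 70.6 in WT libraries (limma, adjusted p = 0.000979). Their part in the Pdgfrb values was not tested.

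**Figure D2:**
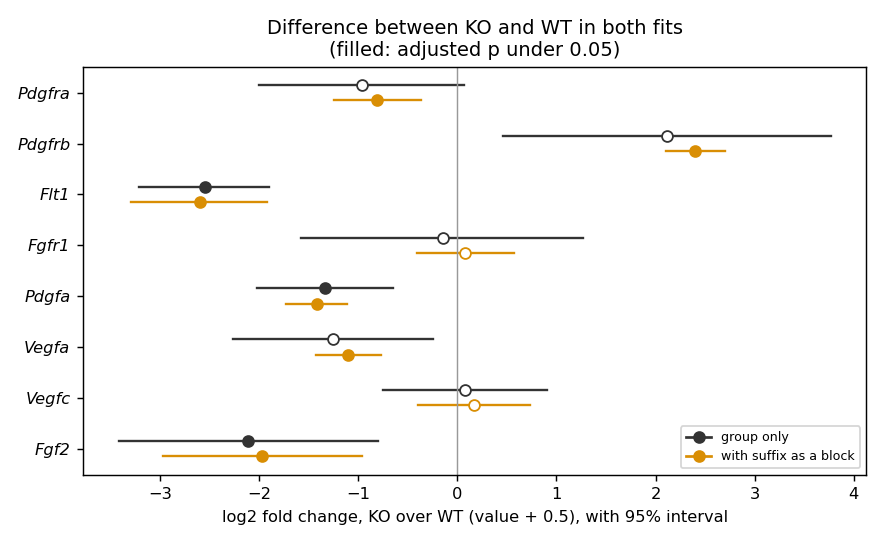
Log2 fold changes of the 8 members, KO over WT, with 95% intervals from the fit with group only (black) and from the fit with the suffix as a block (orange); filled points have an adjusted p under 0.05. Flt1, Pdgfa and Fgf2 are filled in both fits, Pdgfra, Pdgfrb and Vegfa only with the block, and Fgfr1 and Vegfc in neither.

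Fgfr1, the main FGF receptor of mesenchymal cells, differed between the suffixes, and its difference between genotypes did not pass the test. Fgfr1 (ENSMUSG00000031565, chromosome 8, 25513654 to 25575718, plus strand) had 38.2, 59.5 and 135.1 in KO C1, C2 and SE, against 48.3 and 116.8 in WT C1 and SE. The SE library was the highest in each group and the groups overlapped. The log2 fold change was -0.15 with a 95% interval from -1.58 to 1.27 (limma, adjusted p = 0.870). With the suffix as a block it was 0.08, with an interval from -0.41 to 0.57, and the SE libraries were higher by 1.40 on the log2 scale (SE 0.20, adjusted p = 0.00654). An interval of this width does not show that the level is the same.

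Pdgfa, which encodes the PDGF-A chain, was lower in the KO. Pdgfa (ENSMUSG00000025856, chromosome 5, 138976014 to 138997370, minus strand) had 43.4, 39.8 and 29.5 in KO C1, C2 and SE, against 114.0 and 78.4 in WT C1 and SE. All KO libraries lay below both WT libraries, and SE was the lowest in each group. The means were 37.6 ± 7.18 in KO and 96.2 ± 25.2 in WT, 2.56 times lower in the KO, with a log2 fold change of -1.34 (SE 0.29, limma, adjusted p = 0.0134). The difference was -1.45 among C and -1.39 among SE libraries, and without WT C1 the call was lost (-1.07, adjusted p = 0.109). An antisense gene, 6330403L08Rik, shares 813 exon bases with Pdgfa and had at most 1.45 in any library.

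Fgf2, basic fibroblast growth factor, was also lower. Fgf2 (ENSMUSG00000037225, chromosome 3, 37348346 to 37410108, plus strand) had 3.57, 1.13 and 4.94 in KO C1, C2 and SE, from 76, 30 and 69 reads, against 11.5 and 16.5 in WT C1 and SE, from 283 and 318 reads. KO C2 was the lowest library and the groups did not overlap. The means were 3.22 ± 1.93 in KO and 14.0 ± 3.54 in WT, 4.34 times lower in the KO, with a log2 fold change of -2.11 (SE 0.55, limma, adjusted p = 0.0266). Within the suffixes it was -2.21 among C and -1.64 among SE libraries. The call was lost without WT C1 (-2.36, adjusted p = 0.0756) and without WT SE (-1.85, adjusted p = 0.133). Nudt6, which is transcribed from the opposite strand and shares 640 exon bases with Fgf2, had 2.49, 2.27 and 1.65 in KO libraries, against 3.81 and 2.75 in WT libraries (limma, adjusted p = 0.24). Whether counting used the strand is not given in the sources used here, so the counts over the shared bases are uncertain for both genes. The same holds for the bases that Pdgfa shares with 6330403L08Rik.

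Vegfa was lower in every KO library without passing the test with group alone. Vegfa (ENSMUSG00000023951, chromosome 17, 46016993 to 46032369, minus strand) had 42.2, 44.9 and 93.9 in KO C1, C2 and SE, against 104.9 and 174.9 in WT C1 and SE. The highest KO library, SE, came close to WT C1. The means were 60.3 ± 29.1 in KO and 140 ± 49.5 in WT, 2.32 times lower in the KO, with a log2 fold change of -1.26 (SE 0.42, limma, adjusted p = 0.059). Within the suffixes it was -1.26 among C and -0.89 among SE libraries. The gene was called with the suffix as a block (-1.10, adjusted p = 0.000714) and without KO SE (-1.63, adjusted p = 0.00367).

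Vegfc, the lymphatic growth factor, was low in both groups. Vegfc (ENSMUSG00000031520, chromosome 8, 54077606 to 54187096, plus strand) had 4.80, 4.28 and 7.09 in KO C1, C2 and SE, against 4.17 and 5.91 in WT C1 and SE. The groups overlapped, and SE was again the highest library of each. The log2 fold change was 0.08, with a 95% interval from -0.75 to 0.90 (limma, adjusted p = 0.889). Per kilobase of exon, the ratio of Vegfa to Vegfc was 5.03, 6.00 and 7.57 in KO libraries, against 14.4 and 16.9 in WT libraries, without overlap (two-sided exact permutation test, p = 0.2, the smallest possible).

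Ordered by level per kilobase of merged exons, the members are given first in KO and then in WT cells. In KO cells Pdgfrb was first at 81.5 ± 65.4 per kb, and its lowest library, at 43.7, was above every other member in any KO library. Vegfa at 14.1 ± 6.8, Pdgfa at 12.0 ± 2.30, Pdgfra at 8.67 ± 3.94 and Fgfr1 at 7.86 ± 5.16 per kb followed, with ranges that overlapped from neighbour to neighbour. Vegfc at 2.20 ± 0.612, Fgf2 at 0.474 ± 0.285 and Flt1 at 0.00805 ± 0.00259 per kb came last and did not overlap with each other. In WT cells Vegfa at 32.6 ± 11.5 and Pdgfa at 30.8 ± 8.08 per kb were first, followed by Pdgfrb at 17.7 ± 12.3 and Pdgfra at 16.5 ± 6.36, each overlapping with its neighbour. Fgfr1 had 8.36 ± 4.91, Fgf2 2.06 ± 0.521, Vegfc 2.06 ± 0.4996 and Flt1 0.232 ± 0.0672 per kb in WT cells, where Fgf2 and Vegfc could not be ordered. By means, Pdgfrb led in KO cells and came after Vegfa and Pdgfa in WT cells, but the WT order is not firm: in WT SE it had 26.4 per kb, against 25.1 for Pdgfa, and its WT range overlapped that of Vegfa. Exons of all annotated transcripts were merged, so the levels are too low for genes that use few of them.

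The SE libraries were higher than the C libraries for most members. With genotype and suffix fitted together, 5 of the 8 members differed between SE and C, beside 32.8% of all tested genes, and 4 of these 5 were higher in SE. The log2 differences, SE over C, were 1.72 for Pdgfrb, 1.40 for Fgfr1, 0.94 for Vegfa and 0.93 for Pdgfra (limma, adjusted p between 0.00316 and 0.0141), and -0.51 for Pdgfa (adjusted p = 0.0273). Vegfc, Flt1 and Fgf2 did not pass, with 0.53, -0.30 and 0.83. The genotype difference had the same sign among C and among SE libraries for 7 of the 8, Fgfr1 being the exception at -0.02 and 0.21.

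Around the members, genes on the same chromosome gave the local setting. Among the 25 tested genes on each side of Pdgfra, the median log2 fold change was -0.66, against -0.33 for chromosome 5 as a whole. Of these 50, 20 were lower and 7 higher at the threshold, beside 17.1% lower and 17.2% higher over all tested genes, and 15 had a lower log2 fold change than Pdgfra. Pdgfa and Flt1, farther along chromosome 5, had local medians of -0.24 and -0.22. None of the 45 neighbours of Flt1 had a lower log2 fold change than Flt1 itself, and 4 of the 50 neighbours of Pdgfa were lower than Pdgfa. The local medians were -0.38 around Fgf2, -0.01 around Vegfa and 0.32 around Pdgfrb, and 39 of the 50 neighbours of Pdgfrb lay below it. Their chromosomes as a whole had medians of -0.32, -0.31 and 0.20. Around Vegfc and Fgfr1, on chromosome 8, the medians were -0.10 and -0.18. At the threshold, 16 neighbours of Fgf2 were lower and 2 higher, and 6 neighbours of Pdgfrb were lower and 17 higher. The lower and higher counts were 9 and 9 around Vegfa, 5 and 6 around Pdgfa and 7 and 7 around Flt1. They were 9 and 10 around Vegfc and 8 and 8 around Fgfr1.

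The other PDGF genes included a strongly higher receptor-like gene and a lower ligand. Of 6 PDGF ligand and receptor genes tested, 1 was higher and 2 lower, Pdgfa among them, 50% called beside 34.3% of all tested genes. Without WT C1, 1 was lower, and without WT SE or without KO SE, 2 were higher. Pdgfrl, which encodes a protein like the outer part of a PDGF receptor without the kinase, rose to 61.5, 40.7 and 55.8 in KO libraries, against 1.18 and 0.881 in WT libraries (log2 fold change 5.11, SE 0.31, limma, adjusted p = 0.000131). Pdgfc, a ligand of PDGFR-alpha that is activated by proteolysis, fell to 15.6, 18.5 and 18.7 in KO libraries, against 78.0 and 76.9 in WT libraries (log2 fold change -2.11, adjusted p = 0.00112). Pdgfa and Pdgfc, both ligands of the alpha receptor, were thus lower; Pdgfb was not analysed here. Pdgfd, a ligand of PDGFR-beta, had means of 30.7 ± 6.08 in KO and 24.1 ± 3.65 in WT (adjusted p = 0.407).

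Among the other VEGF genes, those called were higher in the KO. Of 8 tested, 4 were higher and 1, Flt1, was lower, 62.5% called beside 34.3% of all tested genes. The higher count was 2 without WT C1, 1 without WT SE and 2 without KO C2, and 2 were lower without KO SE. The other VEGF receptors Kdr and Flt4 were not analysed here. Nrp2 and Nrp1 encode neuropilins, co-receptors of VEGF and semaphorins. Nrp2 rose to 171.6, 206.3 and 445.3 in KO libraries, against 38.5 and 56.4 in WT libraries (log2 fold change 2.42, limma, adjusted p = 0.00717). Nrp1 rose to 153.6, 184.3 and 243.5, against 73.2 and 88.7 in WT libraries (1.24, adjusted p = 0.0137), a call lost without WT C1 (adjusted p = 0.0976), WT SE (0.0524) or KO C2 (0.0513). Pgf, placental growth factor, a ligand of FLT1, rose to 35.2, 21.0 and 18.9 in KO libraries, against 6.65 and 4.82 in WT libraries (4.37 times higher as means, adjusted p = 0.00772, and 0.0565 without WT SE). Every KO library of these genes lay above both WT libraries. Vegfd, a lymphatic growth factor related to Vegfc, rose to 71.0, 70.8 and 81.6 in KO libraries, against 45.8 and 37.0 in WT libraries (0.84, adjusted p = 0.0293), and lost its call when WT C1, WT SE, KO C1 or KO C2 was left out (adjusted p between 0.0795 and 0.193), and also without both SE libraries (0.62, adjusted p = 0.0509). Per kilobase, the ratio of Vegfd to Vegfa was 2.99, 2.80 and 1.55 in KO libraries, against 0.777 and 0.376 in WT libraries (two-sided exact permutation test, p = 0.2, the smallest possible). Vegfb, another ligand of FLT1, had means of 67.8 ± 23.8 in KO and 57.6 ± 5.08 in WT (adjusted p = 0.692). Of 12 endothelial markers, 4 were in the table and summed to between 65.4 and 147 in KO and between 35.2 and 76.1 in WT, nearly all of it Eng, which stromal cells express too. These markers did not go one way. Erg, an endothelial transcription factor, had 0 reads in the KO and 68 in the WT (limma, adjusted p = 0.00121), the 1 marker of the 4 called. Erg passed the filter only through the WT libraries, at 1.66 in WT C1 and 1.40 in WT SE, close to its cut of 1. Vwf, von Willebrand factor, had 91 reads in the KO and 1 in the WT (log2 fold change 1.82, adjusted p = 0.0653), and Egfl7 and Eng had log2 fold changes of 0.91 and 0.75 without passing. None was called higher, while 2 were at an unadjusted p under 0.05, edgeR and DESeq2 each called 1 higher, and the suffix block called 2 higher. Their part in the Flt1 values was not tested.

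The list of FGF ligands and receptors also holds Fgf13, which is not secreted. Of its 8 genes tested, 2 were higher and 3 lower, 62.5% called beside 34.3% of all tested genes. Without WT C1 or without WT SE, 1 was higher and 1 lower, and without KO C2, 1 was higher. Fgfr2, a second FGF receptor, rose to 147.5, 141.2 and 350.9 in KO libraries, against 13.2 and 12.9 in WT libraries (log2 fold change 3.84, SE 0.42, limma, adjusted p = 0.00105). Per kilobase of merged exons, the ratio of Fgfr2 to Fgfr1 was 3.69, 2.27 and 2.48 in KO libraries, against 0.262 and 0.106 in WT libraries (two-sided exact permutation test, p = 0.2, the smallest possible). By this measure Fgfr2 was the higher in every KO library and Fgfr1 in both WT libraries, which depends on the exon lengths used. Fgfrl1, a receptor without a kinase domain, rose to means of 162 ± 42.5 in KO, against 64.9 ± 11.3 in WT (1.29, adjusted p = 0.018), and its call was lost without WT C1 (0.114), WT SE (0.055) or KO C2 (0.0721). Fgf10, a mesenchymal ligand that acts on FGFR2, fell to 1.55, 1.93 and 2.22 in KO libraries, against 56.3 and 65.5 in WT libraries (-4.68, SE 0.30, adjusted p = 0.000143). Fgf13, an intracellular family member that is not secreted, had 0 reads in every KO library and 32.0 and 24.3 in WT libraries, at least 180-fold lower at a floor of 3 reads in each KO library (adjusted p = 7.05e-05). Fgf13 passed the filter on low values only through its WT libraries and could not be fitted without WT C1 or without WT SE. Fgf7, the keratinocyte growth factor, had means of 334 ± 98.8 in KO and 268 ± 149 in WT (adjusted p = 0.493).

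**Figure D3:**
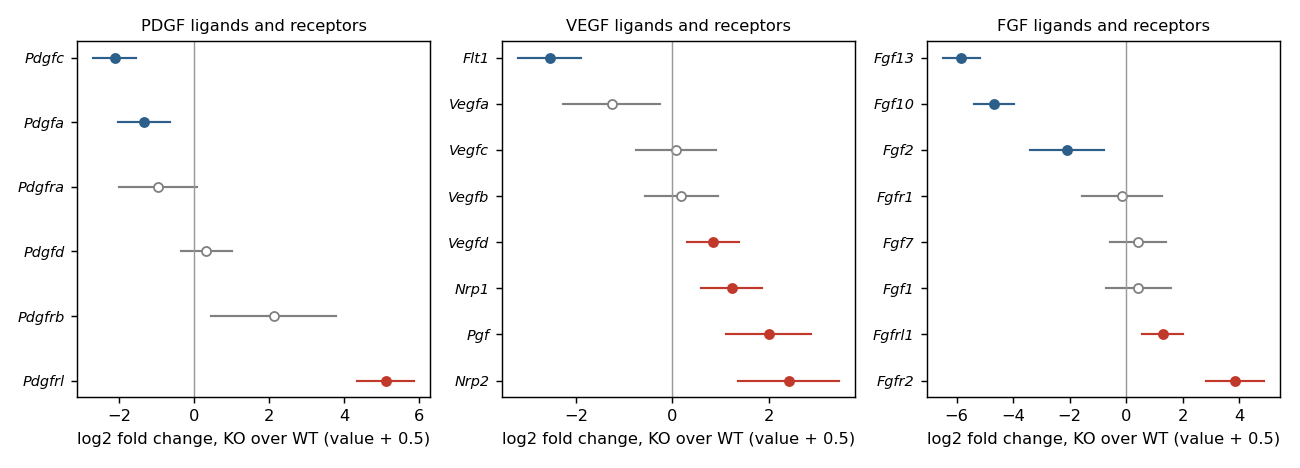
Log2 fold changes, KO over WT, with 95% intervals for the tested PDGF (left), VEGF (middle) and FGF (right) ligand and receptor genes; red and blue filled points were higher and lower at an adjusted p under 0.05, and open grey points did not pass. Each panel holds genes in both directions, with Pdgfrl at 5.11 and Fgf13 at -5.83 as the extremes, the second depending on the pseudocount because Fgf13 had no KO reads. Fgf13 passed the filter on low values only through its WT libraries.

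**Figure D4:**
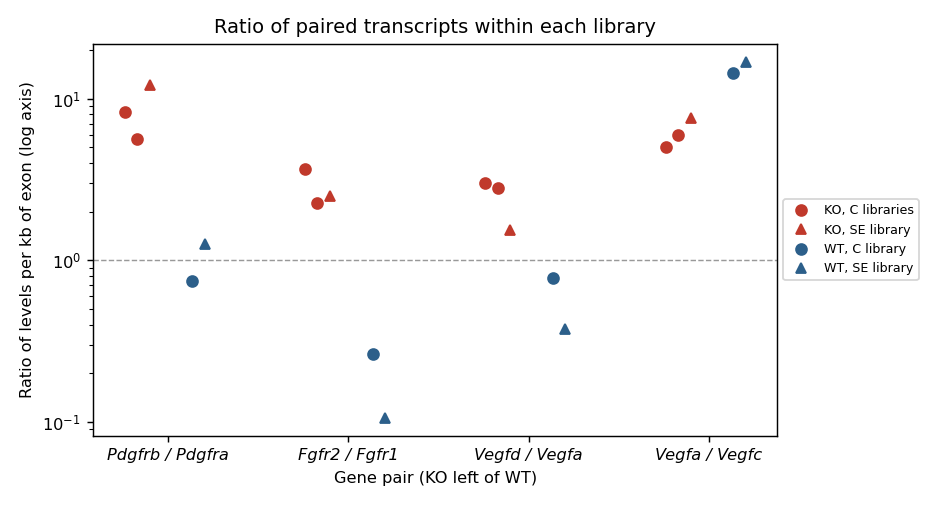
Ratios of 2 transcripts per kilobase of merged exons within each library (log axis), KO in red and WT in blue, circles for C and triangles for SE libraries, with a dashed line at equal levels. Pdgfrb over Pdgfra, Fgfr2 over Fgfr1 and Vegfd over Vegfa are higher, and Vegfa over Vegfc is lower, in every KO library than in either WT library.

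Among genes that trim, activate or hold these ligands, 6 of 18 tested were higher, 3 were lower and 9 did not pass, which is 50% called beside 34.3% of all tested genes. Plat, tissue plasminogen activator, which cleaves latent PDGF-C, fell to 40.7, 47.3 and 33.8 in KO libraries, against 261.9 and 274.6 in WT libraries (log2 fold change -2.72, limma, adjusted p = 0.000393). Among heparan sulphate genes, Sdc1, a cell-surface proteoglycan, rose to means of 561 ± 89.5 in KO, against 98.5 ± 3.01 in WT (2.49, adjusted p = 0.000521). Sulf1, which removes sulphate groups from heparan sulphate outside the cell, rose to 74.6, 50.9 and 155.6 in KO libraries, against 2.68 and 5.70 in WT libraries (4.25, adjusted p = 0.00173). Hs6st2, which adds such groups, rose to 175.4, 68.4 and 258.2 in KO libraries, against 14.9 and 18.1 in WT libraries (3.11, adjusted p = 0.00611). The list was split: Sdc2 and Sdc4, of the same family as Sdc1 and named after their values were seen, fell to means of 500.1 ± 70.9 and 55.7 ± 21.1 in KO, against 1287 ± 131 and 151 ± 41.9 in WT. Without WT SE the list held 3 higher genes, and without WT C1 it held 1 lower gene.

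Targets and feedback inhibitors of FGF signalling were mostly lower. Of 16 tested, 12 were lower and 0 higher, which is 75.0% beside 34.3% of all tested genes, with a median log2 fold change of -1.82 beside -0.09. Etv4, an ETS factor induced by FGF, fell to 0.329, 0 and 0.430 in KO libraries, against 23.3 and 39.5 in WT libraries (-5.40, SE 0.40, limma, adjusted p = 0.000256). Its relative Etv1 and, named after their values were seen, Etv5, Dusp6 and further inhibitors were also lower. Etv1 and Etv5 fell to means of 2.97 ± 0.763 and 12.3 ± 5.38 in KO, against 27.5 ± 4.77 and 37.7 ± 12.7 in WT. Dusp6, the phosphatase that switches off ERK, fell to 97.7, 79.1 and 68.5 in KO libraries, against 436.6 and 270.7 in WT libraries (-2.08, adjusted p = 0.00263). The Ras-pathway inhibitors Spred1, Spred2, Spred3 and Spry4 were lower as well, and so were Flrt2 and Flrt3, which encode membrane proteins. Etv4 and Flrt2 passed the filter on low values only through their WT libraries, so neither could be fitted without WT C1 or without WT SE. Ccnd1, cyclin D1, fell to 149.4, 126.6 and 100.8 in KO libraries, against 857.3 and 996.1 in WT libraries (-2.89, adjusted p = 0.000413). Not all followed: Spry1 had means of 5.32 ± 2.91 in KO and 1.68 ± 0.483 in WT (adjusted p = 0.0701), Egr1 had 1529 ± 603 in KO and 978 ± 560 in WT (adjusted p = 0.349), and Spry2 and Dusp5 did not pass. At an unadjusted p under 0.05, 1 was higher, and at the adjusted threshold edgeR called 0 higher and DESeq2 called 1. The count was 5 lower genes without WT C1 and 5 without WT SE, 1 was called higher without KO C2 and 2 with the suffix as a block, and other pathways regulate these genes too.

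**Figure D5:**
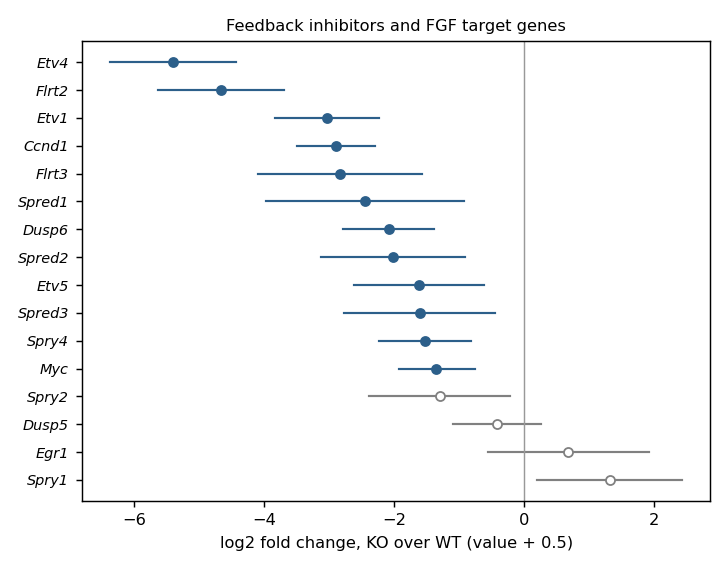
Log2 fold changes, KO over WT, with 95% intervals for 16 feedback inhibitors and target genes of FGF signalling; blue filled points were lower at an adjusted p under 0.05 and open grey points did not pass. The 12 filled points run from Etv4 at -5.40 to Myc at -1.35, and the open points include Spry1 at 1.32 on the other side of 0. Etv4 and Flrt2 passed the filter on low values only through their WT libraries.

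Adaptors that link these receptors to Ras and to lipid kinases seldom passed the test with group as the only term. Of 19 tested, 1 was lower and 0 higher, 5.26% beside 34.3% of all tested genes; at an unadjusted p under 0.05, 0 was higher, and edgeR and DESeq2 called 0 higher. The gene called was Grb2, the adaptor that brings SOS to activated receptors, which fell to 51.8, 58.3 and 58.3 in KO libraries, against 93.4 and 95.1 in WT libraries (log2 fold change -0.74, limma, adjusted p = 0.033). This call was lost without WT C1 (0.165), WT SE (0.171), KO C1 (0.118) or KO C2 (0.109), and also under quantile normalization (-0.63, adjusted p = 0.0661). With the suffix as a block 4 adaptors were higher and 7 lower of the 19, near the 60.6% of all tested genes called in that fit, so the low count depends on the fit. Without KO SE 5 were lower.

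Hypoxia-inducible genes, of which Vegfa is a classical example, had 2 higher and 2 lower of 14 tested, and this 28.6% is close to the 34.3% of all tested genes, so the count is no result about these genes. Slc2a1, the glucose transporter GLUT1, fell to 62.0, 66.5 and 53.3 in KO libraries, against 185.7 and 151.9 in WT libraries (log2 fold change -1.47, limma, adjusted p = 0.0038). Adm, adrenomedullin, rose to 274.1, 191.1 and 233.8 in KO libraries, against 71.7 and 84.3 in WT libraries (1.56, adjusted p = 0.00394). Ndrg1 fell to means of 15.4 ± 3.67 in KO, against 49.4 ± 18.01 in WT (adjusted p = 0.014, and 0.106 without WT SE). Epas1, the hypoxia factor HIF-2 alpha, had means of 2.93 ± 1.23 in KO and 0.859 ± 0.470 in WT, was called at an adjusted p of 0.0483, and passed in 8 of 17 alternative settings (adjusted p between 0.00525 and 0.287). It was lost without WT C1 (0.287), WT SE (0.0956), KO C2 (0.105) or KO SE (0.0571). 

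Genes with the profile closest to each called member were found by the mean absolute difference of centred log2 values over the 5 libraries, among genes with a mean of at least 5. For Pdgfa these were Ppp2r2d at a mean difference of 0.04, Hspa8 at 0.05 and Ilf2 at 0.06. For Flt1 they were Cd14, Mllt3 and Sms, each at 0.07, on a scale where the pseudocount lifts the low Flt1 values. For Fgf2 they were Timp3 at 0.17, Mcm10 at 0.18 and Slc25a13 at 0.20. Of 10 haematopoietic markers, 4 were in the table, with 2 higher and 1 lower (75.0% called beside 34.3% of all tested genes), and these summed to between 50.1 and 59.1 in KO and between 66.9 and 94.4 in WT. Of these 4, Lyz2 and Csf1r rose to means of 30.3 ± 5.20 and 6.34 ± 2.93 in KO, against 0.0811 ± 0.115 and 0.279 ± 0.338 in WT, while Cd14 fell to 12.5 ± 1.38 in KO, against 76.5 ± 18.02 in WT. Lyz2 and Csf1r passed the filter on low values only through their KO libraries. The part of these 4 markers in the members' values was not tested.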

How the data were processed

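Stranded poly(A) RNA-seq with single-end reads of 75 bp was used, per the labels' protocols. The submitters' processing notes list STAR 2.5, featureCounts 1.5.2 and edgeR, with no role. Build, annotation and strand setting are not given in the sources used here. The 5 deposited columns hold a signal, described by the deposited table's name as normalised counts, with column totals between 931660 and 1052930. Column names showed the group of a library but no replicate number.

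Dividing each column by its smallest step returned whole reads (tolerance 0.02) for 100% of values. limma 3.58.1 (eBayes, trend) was run on log2 of the value plus 0.5, keeping genes that reached 1 in 2 or more libraries. Group was the sole term (3 residual degrees of freedom), with Benjamini-Hochberg adjustment and a threshold of 0.05. The code was tested on simulated data. Tried as alternatives were rescaling (TMM, quantile, median of ratios), a pseudocount of 0.1 or 1, another filter (none, or 5), eBayes without trend or robust, edgeR 4.0.16 (quasi-likelihood) and DESeq2 1.42.0 on the recovered reads, each library left out, the suffix as a block (2 residual degrees of freedom) and no SE libraries. GENCODE M21 (GRCm38) gave coordinates and exon lengths, matched by identifier for 12607 of 12621 genes. From each of 11 lists, up to 4 called genes with the smallest p-values and separate groups were named, and also the members' partners; others are marked as named after their values were seen, or are uncalled genes given for contrast. The members and lists were chosen with earlier results of these data known. R 4.3.3 and Python 3.11.15 were used.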

Additional observations from a re-analysis of the deposited data

How the results depend on the processing

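Over 18 alternative settings, Flt1, Pdgfa, Fgf2, Pdgfra, Pdgfrb and Vegfa kept their direction in every setting in which they could be fitted. Flt1 was called in all 14 of these, Pdgfa in 17 of 18 and Fgf2 in 16 of 18, and Pdgfrb was called in 6, Vegfa in 4 and Pdgfra in 3. Flt1 passed the filter only through its WT libraries and could not be fitted without WT C1 or without WT SE. Its count is therefore not comparable with those of Pdgfa and Fgf2, which were fitted in these settings. The number of members called higher, 0 in the main fit, was 1 (Pdgfrb) with median-of-ratios rescaling, DESeq2, the suffix block and without both SE libraries, and 0 to 1 with single libraries left out. The number called lower, 3 in the main fit, was 5 with the suffix block and 0 to 5 with single libraries left out, 0 being without WT C1. Over all genes, 2150 were higher and 2129 lower, which became 3530 and 4038 with the suffix block, and 1049 to 2332 higher and 594 to 2632 lower with single libraries left out. Vegfc turned to -0.07 with quantile normalization, -0.15 without WT C1 and -0.12 without KO SE, and ranged from -0.15 to 0.30 with single libraries left out. Fgfr1 turned to 0.48 without WT SE, 0.25 without KO C1 and 0.08 with the suffix block, and ranged from -0.79 to 0.48. Among partners, Vegfb turned to -0.09 without KO C2 (range to 0.34), Fgf1 to -0.19 without WT C1 (range to 0.66), and Fgf7 to -0.20 without WT SE and -0.08 without both SE libraries. None of these was called in the main fit, and the cause was not tested. With 1 WT library left, that library is assumed to vary like the others. No rescaling moved the median of all genes by over 0.1 on the log2 scale. No paired analysis was possible because the columns carry no replicate number of the labels; C1 and SE are shared between the genotypes, but what they mark is not given, so the suffix block is a match by name, in which Pdgfra, Pdgfrb and Vegfa were also called. Depth limits Flt1 most, with 7 KO reads in all.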
